A study of Homo sapiens with 6 samples.

Results

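The genes described here are the core of the switch that takes a cell from G2 phase into mitosis, measured in breast cancer cells with and without silencing of WDR5. They are the kinase CDK1, its cyclins CCNA2, CCNB1 and CCNB2, the phosphatases CDC25A, CDC25B and CDC25C, the inhibitory kinase WEE1, and the mitotic kinases PLK1 and AURKA. The 10 genes were chosen by name, and all 10 were found among the 26334 genes of the count table. RNA-seq was performed on MCF10DCIS.com (hereafter MCF10DCIS), an established human breast cancer cell line that models ductal carcinoma in situ. Cells grew in DMEM/F12 with 5% horse serum. The 3 control libraries (shLuc) came from cells infected with a pRSI vector in which the U6 promoter drives a hairpin against luciferase, a gene that human cells lack. The other 3 (shWDR5) came from cells carrying a hairpin against WDR5 in the same vector. Both groups also carried TagRFP and puromycin resistance from the UbiC promoter and were kept in 3 µg/ml puromycin. The study describes pooled WDR5 hairpins, whereas the labels name a single vector. The labels number the replicates but do not say that they came from separate cultures. The study gives biological triplicates as its default, without naming these libraries. The p-values therefore measure only the spread between these libraries, which may be technical.

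Read counts summed to between 38218108 and 57640167 per library, and each of the 10 genes had at least 366 counts in every library. WDR5, a subunit of the complexes that methylate histone H3 at active promoters, stood at 52.6, 48.5 and 51.3 CPM (counts per 1000000 counts, after TMM scaling) in the shLuc libraries and at 23.4, 24.4 and 20.8 CPM in the shWDR5 libraries. Its level was 55.0% lower in shWDR5 cells (log2 fold change -1.15, SE 0.08, adjusted p = 8.67e-07, edgeR quasi-likelihood test), and WDR5 is the hairpin target that the labels name. All 9 markers of basal and epithelial breast cells were expressed, led by KRT17 at 3145 CPM over the 6 libraries. Their summed level ran from 9394 to 9616 CPM in shLuc and from 11640 to 12478 CPM in shWDR5 libraries. At an adjusted p under 0.05 (edgeR), 4 markers were higher and 2 lower in shWDR5 cells, against 26.6% and 29.9% of all genes tested. The markers higher were KRT14 (log2 fold change 1.29), KRT17 (0.94), KRT5 (0.91) and TP63 (0.42), and those lower were CDH1 (-1.03) and EPCAM (-0.33). Among 7 fibroblast markers 6 were under 1 CPM and LUM was at 0, which allows up to 3 counts in a library (0.0774 CPM in the shallowest). COL1A1 led them and was lower in shWDR5 cells (log2 fold change -0.50, adjusted p = 4.38e-04, edgeR), and the summed level was 22.1 to 23.9 CPM in shLuc and 15.0 to 18.0 CPM in shWDR5 libraries. Among 4 leukocyte markers 3 were under 1 CPM and CD3E was at 0. CD68 led this list, and the sum ran from 10.4 to 13.0 CPM with the groups overlapping. The 3 endothelial markers summed to between 7.58 and 7.93 CPM in shLuc and between 4.71 and 5.36 CPM in shWDR5 libraries, led by PECAM1, which was lower in shWDR5 cells (log2 fold change -0.71, adjusted p = 5.65e-05, edgeR). The part of these differences in the results below was not tested.

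CDK1 becomes active when a cyclin binds it, cyclin A first and the B cyclins later, and B cyclins carry the cell into mitosis. WEE1 holds the complex back by phosphorylating CDK1, and the CDC25 phosphatases remove that mark. PLK1 and AURKA act in a loop with CDK1: AURKA, with its cofactor BORA, activates PLK1, which in turn favours CDC25C and the destruction of WEE1. Most of these transcripts rise and fall with the cell cycle, peaking in G2 and M phase, and they are read as marks of how many cells in a culture are dividing. In bulk libraries such as these, fewer cells in G2 and M phase and less RNA in each such cell cannot be told apart.

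Promoter sequence is shown first because genes of this class are known to share short promoter elements. Binding to them was not measured here. The cell cycle genes homology region (CHR, searched as TTTGAA) is bound by the DREAM and MYBL2 complexes with their LIN54 subunit, the CCAAT box (searched as CCAAT) by NF-Y, and E2F factors bind sites like TTTGGCGC and TTTCGCGC. Each was searched on both strands from 250 bases before to 50 bases after each transcript start in RefSeq promoter windows (build GRCh38.p14), of which 8 members had 15. WEE1 and AURKA had no window. The stretches below run from 150 bases before the start to the 30th transcribed base, 5′ to 3′ on the strand of the gene, with matches in capitals and no overlap between motifs. For CDK1, CCNA2, CCNB1, CCNB2, CDC25A, PLK1 and CDC25B the window nearest to the principal GENCODE transcript start is given. Positions are counted from the RefSeq transcript start of each window, which in these genes lay 24 (CDK1) to 140 bases (CCNB1) from the principal start. For CDC25C the window with TTTGAA before the start is given, and the window nearest to its principal start held none of these motifs.
CDK1, chr10:60778328-60778507, plus strand: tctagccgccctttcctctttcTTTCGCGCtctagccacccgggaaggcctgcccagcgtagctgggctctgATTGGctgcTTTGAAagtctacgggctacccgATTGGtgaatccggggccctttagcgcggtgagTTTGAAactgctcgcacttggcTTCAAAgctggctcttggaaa
CCNA2, chr4:121823854-121824033, minus strand: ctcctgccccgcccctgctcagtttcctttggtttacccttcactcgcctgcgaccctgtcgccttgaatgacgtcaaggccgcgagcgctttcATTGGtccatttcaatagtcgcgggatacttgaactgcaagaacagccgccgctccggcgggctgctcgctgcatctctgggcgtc
CCNB1, chr5:69167000-69167179, plus strand: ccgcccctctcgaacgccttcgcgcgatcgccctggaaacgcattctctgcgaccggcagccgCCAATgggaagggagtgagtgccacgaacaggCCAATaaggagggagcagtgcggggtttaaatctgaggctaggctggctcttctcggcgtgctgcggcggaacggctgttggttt
CCNB2, chr15:59104996-59105175, plus strand: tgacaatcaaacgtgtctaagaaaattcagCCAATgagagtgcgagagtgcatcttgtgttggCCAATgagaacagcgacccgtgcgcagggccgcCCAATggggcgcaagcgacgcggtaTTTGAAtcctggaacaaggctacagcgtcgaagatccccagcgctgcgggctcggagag
CDC25A, chr3:48188388-48188567, minus strand: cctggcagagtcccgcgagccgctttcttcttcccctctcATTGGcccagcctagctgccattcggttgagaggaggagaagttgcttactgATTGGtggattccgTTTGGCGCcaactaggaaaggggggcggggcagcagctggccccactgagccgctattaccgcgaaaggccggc
CDC25C, chr5:138331775-138331954, minus strand: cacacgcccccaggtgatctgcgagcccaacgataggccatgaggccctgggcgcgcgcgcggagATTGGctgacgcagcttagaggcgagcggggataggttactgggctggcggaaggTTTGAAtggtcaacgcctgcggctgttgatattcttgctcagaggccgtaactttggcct
PLK1, chr16:23678739-23678918, plus strand: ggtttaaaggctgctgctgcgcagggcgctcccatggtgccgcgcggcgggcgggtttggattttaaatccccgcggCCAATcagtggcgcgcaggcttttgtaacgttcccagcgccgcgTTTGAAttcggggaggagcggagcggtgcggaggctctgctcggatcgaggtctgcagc
CDC25B, chr20:3795639-3795818, plus strand: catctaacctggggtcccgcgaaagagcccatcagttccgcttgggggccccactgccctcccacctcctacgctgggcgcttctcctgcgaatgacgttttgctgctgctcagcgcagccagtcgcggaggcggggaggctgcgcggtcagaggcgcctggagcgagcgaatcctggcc

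TTTGAA was found in at least 1 window of 4 members (CDK1, CCNB2, CDC25C and PLK1), and in 15.2% of all 35116 windows. In CCNB2 and PLK1 it began 29 bases before the start. In CDC25C it began 30 bases before the start of the window shown, which was picked for this match, and the same site was position 44 of the transcript in another window. In CDK1 it began 69 and 13 bases before the start and, on the opposite strand, at position 10 of the transcript in the window shown, and 161 bases before the start in another. CCAAT was found in at least 1 window of all 8 members and in 34.6% of all windows. A pair of CCAAT boxes beginning 31 to 33 bases apart was present in CDK1, CCNB1 and CCNB2, against 1.08% of all windows. An E2F site was found in CDK1 and CDC25A, against 1.15% of all windows. CCNA2, with 1 window, held a single CCAAT and no exact match to the other motifs. Variant forms of the elements were not searched, so a gene without a match here may still carry the element. The CDC25B stretch has no capitals, since the single CCAAT of that window lay 169 bases before the start. Several members have more than 1 window and so more chances of a match, and a match describes these letters only.

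**Figure D1:**
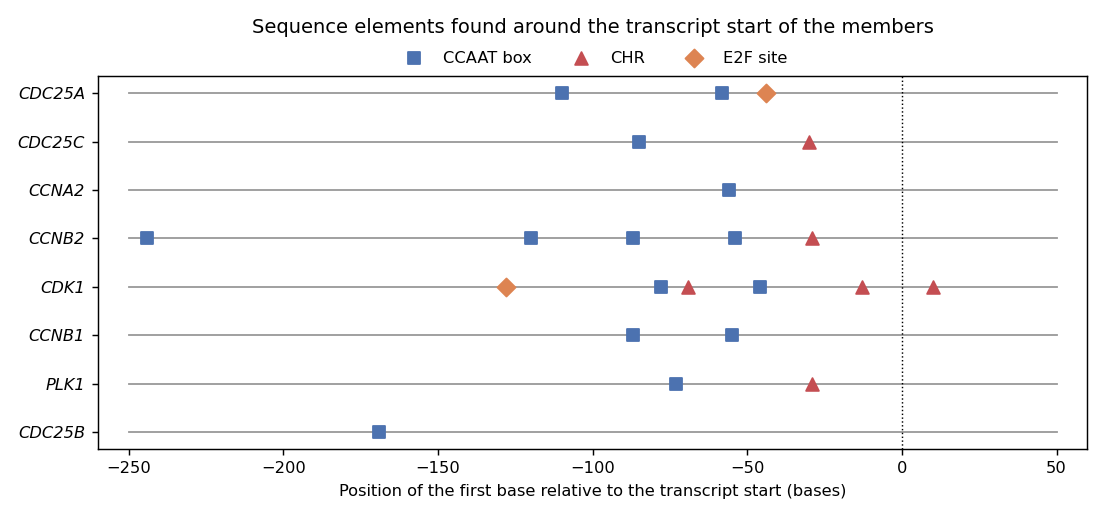
Position of each element (symbols) relative to the transcript start (x axis, bases) in 1 promoter window for each of the 8 genes that had one (grey lines, 250 bases before to 50 after the start). The window is the one nearest to the principal start except for CDC25C, where one with TTTGAA before the start was picked. TTTGAA, drawn as CHR, begins 29 bases before the start in CCNB2 and PLK1 and 30 in CDC25C. In CDK1 such matches begin 69 and 13 bases before the start and at position 10 of the transcript. In CDC25B the single CCAAT lies 169 bases before the start. Binding to these matches was not measured.

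WDR5 silencing was then compared with the control across the whole transcriptome, to place these genes among all others. Of the 10 genes 8 were lower in shWDR5 cells and none was higher at an adjusted p under 0.05 (edgeR; none was higher at an unadjusted p under 0.05 or with DESeq2 either). CDC25A and CDC25C were the lowest, at 43.6% and 45.9% of the control level, followed by CCNA2, CCNB2, CDK1, AURKA, CCNB1 and PLK1. CDC25B and WEE1 were not called. Of the 16117 genes tested 9112 were called (56.5%), 29.9% lower and 26.6% higher, so that calls were common in both directions. With the further requirement of a log2 fold change of at least 0.6, which the study also applied, 7 of the 10 genes were lower, against 12.0% of all genes (10.9% were higher, 22.9% either), and PLK1 (log2 fold change -0.41) was not. The median log2 fold change was -0.80 over the 10 genes and -0.01 over all genes tested. CDC25A lay at percentile 2.56 of all genes tested ordered from the most reduced, CDC25C at percentile 3.17, CDK1 at percentile 5.96 and PLK1 at percentile 19.9. CDC25B lay at percentile 55.8 and WEE1 at percentile 63.4.

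**Figure D2:**
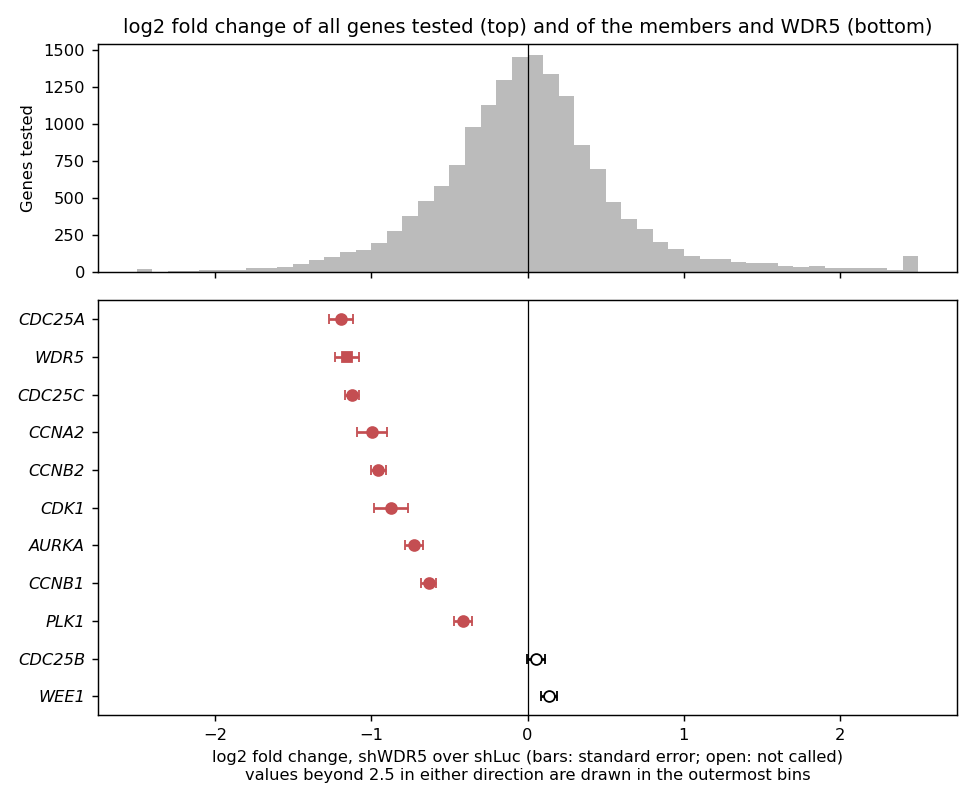
Number of genes tested in each bin of log2 fold change (top), and log2 fold change of the 10 genes and of WDR5 (bottom, with standard errors, n = 3 libraries per group, open symbols not called). The 8 genes called lower lie between -1.20 and -0.41, and CDC25B (0.05) and WEE1 (0.14) lie near the middle of the distribution.

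CDK1, the catalytic subunit (chr10:62538089-62554610 in hg19, the build of the count table, as for the positions that follow), had 84.2, 98.1 and 96.6 CPM in the shLuc libraries and 45.2, 52.1 and 54.7 CPM in the shWDR5 libraries. The groups did not overlap, and in both groups the lowest library was replicate 1. Groups failed to overlap with shWDR5 lower in 32.4% of all genes tested. The CDK1 level was 45.5% lower in shWDR5 cells (log2 fold change -0.87, SE 0.11, adjusted p = 1.23e-05).

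CCNA2 (chr4:122737599-122745088), which encodes cyclin A2 and partners both CDK2 in S phase and CDK1 in G2 phase, had 87.4, 101 and 92.9 CPM in shLuc cells and 43.3, 46.6 and 51.4 CPM in shWDR5 cells. The groups were well apart. Of CCNA2, CCNB1 and CCNB2, CCNA2 had the lowest estimate, within its SE of that of CCNB2 (49.8% lower, log2 fold change -0.995, SE 0.09, adjusted p = 3.21e-06). CCNB2 (chr15:59397284-59417244), the B cyclin found mainly at the Golgi, had 105, 94.9 and 98.4 CPM in shLuc cells and 50.8, 52.8 and 50.1 CPM in shWDR5 cells. The 3 silenced libraries were nearly equal, 48.5% below the control (log2 fold change -0.96, SE 0.05, adjusted p = 7.08e-07). CCNB1 (chr5:68462837-68474070), the main mitotic cyclin, had 161, 151 and 147 CPM in shLuc cells and 99.7, 101 and 95.3 CPM in shWDR5 cells. These groups did not overlap either, and CCNB1 was 35.5% lower (log2 fold change -0.63, SE 0.05, adjusted p = 7.57e-06). In the annotation, 254 of the 2798 exonic bases of CCNA2 are shared with EXOSC9 on the opposite strand, and the strand setting of the counting was not given in the sources used here.

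**Figure D3:**
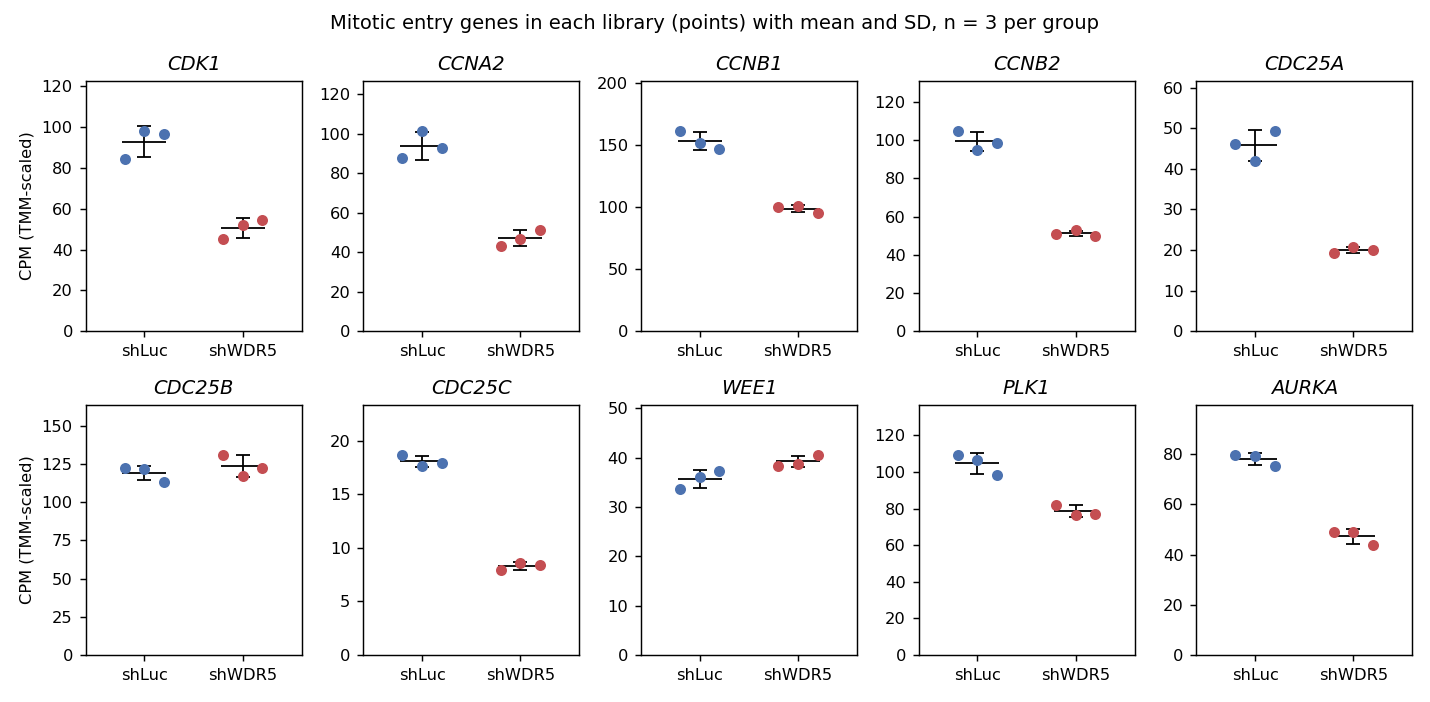
CPM after TMM scaling (y axis, from 0) of the 10 genes in each of the 3 shLuc and 3 shWDR5 libraries (points), with the mean and SD of each group (black). In the 8 genes called lower all shWDR5 points lie below all shLuc points, which held for 32.4% of all genes tested. The CDC25B points overlap (113.6 to 122.4 against 117.2 to 131.1 CPM), and the WEE1 points of shWDR5 cells lie just above those of shLuc cells.

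To ask whether the cyclins fell in proportion, the reads per kilobase of CCNA2, CCNB1 and CCNB2 were summed in each library and the share of each gene was taken. CCNB1 made up 42.9%, 41.8% and 41.2% of the sum in the shLuc libraries and 48.8%, 48.0% and 46.4% in the shWDR5 libraries. Its share was therefore greater in every shWDR5 library, by 5.78 percentage points on average. CCNB2 made up 38.1% ± 1.30 (SD, n = 3) in shLuc cells and 34.6% ± 0.43 in shWDR5 cells, without overlap. The CCNA2 share was 20.0% ± 1.81 (SD, n = 3) in shLuc cells and 17.6% ± 1.58 in shWDR5 cells, and these libraries overlapped. That difference of -2.32 percentage points became -1.48 points without shLuc replicate 2. The two-sided exact permutation test gave p = 0.1 for CCNB1 and CCNB2, the smallest value that 3 against 3 libraries allow, and p = 0.2 for CCNA2 (3 unadjusted tests). With n = 3 per group this test cannot reach the 0.05 threshold.

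The CDC25 phosphatases split. CDC25A (chr3:48198668-48229801), which acts at both the G1/S and the G2/M transition and is an unstable checkpoint target, had 46.2, 41.9 and 49.3 CPM in shLuc cells and 19.2, 20.8 and 19.9 CPM in shWDR5 cells. No library overlapped, and it had the lowest estimate of the 10 genes, within its SE of that of CDC25C (56.4% lower, log2 fold change -1.20, SE 0.08, adjusted p = 8.05e-07). CDC25C (chr5:137620954-137674044), the phosphatase activated by PLK1 and CDK1 at mitotic entry, was the least abundant, with 18.7, 17.7 and 17.9 CPM in shLuc cells and 7.90, 8.57 and 8.43 CPM in shWDR5 cells. It was 54.1% lower (log2 fold change -1.12, SE 0.04, adjusted p = 8.28e-07), with the groups far apart. In CDC25C 293 of 2570 exonic bases are shared with FAM53C on the opposite strand. CDC25B (chr20:3767419-3786768), held to start CDK1 activation at the centrosome, had 122, 121 and 114 CPM in shLuc cells and 131, 117 and 123 CPM in shWDR5 cells. Here the groups overlapped, and the difference was not significant (log2 fold change 0.05, SE 0.06, adjusted p = 0.485).

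Per kilobase, CDC25B made up 59.1%, 60.9% and 56.6% of the summed CDC25 level in the shLuc libraries. In the shWDR5 libraries it made up 78.7%, 75.3% and 76.8%. The share was thus 18.0 percentage points greater in shWDR5 cells, with no overlap between the groups, while that of CDC25A went from 26.2% ± 2.12 (SD, n = 3) to 14.4% ± 1.07 and that of CDC25C from 14.9% ± 0.14 to 8.64% ± 0.65. For each of the 3 genes the two-sided exact permutation test gave p = 0.1 (3 unadjusted tests), again the smallest value possible with n = 3 per group.

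**Figure D4:**
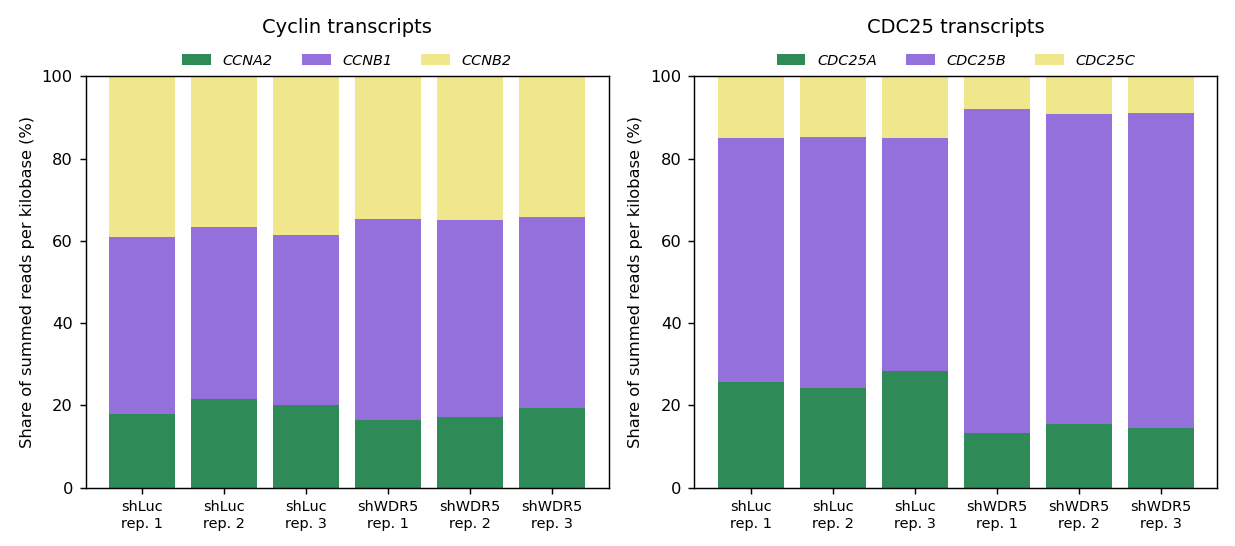
Share (y axis, %) of each gene in the summed reads per kilobase of the cyclins (left) and of the CDC25 genes (right) in each of the 6 libraries (bars). CDC25B takes 56.6% to 60.9% of the CDC25 level in shLuc libraries and 75.3% to 78.7% in shWDR5 libraries, and CCNB1 takes 41.2% to 42.9% and 46.4% to 48.8% of the cyclin level.

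WEE1 (chr11:9595228-9611313), the kinase that opposes the CDC25 phosphatases, was not called either. It had 33.7, 36.1 and 37.3 CPM in shLuc cells and 38.3, 38.8 and 40.6 CPM in shWDR5 cells. The silenced libraries lay above the control libraries by a narrow margin. By any margin, shWDR5 libraries lay above all shLuc libraries in 29.9% of all genes tested. The WEE1 difference did not pass the threshold (log2 fold change 0.14, SE 0.05, adjusted p = 0.0910). PKMYT1, the other kinase that places inhibitory phosphates on CDK1, was by contrast lower, at 66.2 ± 3.44 CPM (SD, n = 3) in shLuc cells and 30.7 ± 1.42 CPM in shWDR5 cells (log2 fold change -1.11, SE 0.06, adjusted p = 5.38e-07).

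AURKA (chr20:54944445-54967351), the centrosomal kinase that activates PLK1 and builds the spindle poles, had 79.8, 79.3 and 75.4 CPM in shLuc cells and 48.9, 49.1 and 43.9 CPM in shWDR5 cells. It was 39.5% lower, without overlap (log2 fold change -0.72, SE 0.06, adjusted p = 5.99e-06). The near-identical copy AURKAPS1 is counted separately in the table, and how reads shared by both were assigned was not given in the sources used here. PLK1 (chr16:23690143-23701688), which drives mitotic entry, centrosome maturation and cytokinesis, had 109, 106 and 98.2 CPM in shLuc cells and 82.2, 76.3 and 77.2 CPM in shWDR5 cells. All shWDR5 libraries were below all shLuc libraries, but the change was the smallest of those called (25.0% lower, log2 fold change -0.41, SE 0.06, adjusted p = 2.17e-04). In PLK1 63 of 2227 exonic bases are shared with ERN2 on the opposite strand.

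Levels per length, in RPKM (the CPM value divided by the kilobases of merged exons), set the order of the 10 genes in each group. In shLuc cells CCNB1 (70.7 ± 3.44 RPKM, SD, n = 3) and CCNB2 (64.1 ± 3.25 RPKM) led, and they differed by less than the sum of their SDs. PLK1 (47.0 ± 2.58 RPKM) came next, then CCNA2 (33.6 ± 2.49 RPKM), AURKA (30.7 ± 0.94 RPKM), CDK1 (28.0 ± 2.31 RPKM) and CDC25B (27.8 ± 1.14 RPKM), with no neighbours among these last 4 apart by more than that sum. CDC25A (12.4 ± 1.01 RPKM), WEE1 (8.82 ± 0.46 RPKM) and CDC25C (7.03 ± 0.21 RPKM) were lowest. In shWDR5 cells CCNB1 (45.6 ± 1.43 RPKM) still led, followed by PLK1 (35.3 ± 1.43 RPKM) and CCNB2 (33.1 ± 0.92 RPKM), which differed by less than the sum of their SDs. CDC25B (28.8 ± 1.63 RPKM) now stood above AURKA (18.6 ± 1.16 RPKM), CCNA2 (16.8 ± 1.47 RPKM) and CDK1 (15.3 ± 1.48 RPKM). WEE1 (9.69 ± 0.30 RPKM) stood above CDC25A (5.39 ± 0.22 RPKM), and CDC25C (3.23 ± 0.14 RPKM) was again lowest.

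Within groups the 10 genes deviated from their group mean by at most 0.16 on the log2 scale, the CDK1 value of shWDR5 replicate 1, less than the smallest difference called (PLK1, -0.41). CDK1, CCNA2 and WEE1 were lowest in replicate 1 of both groups, and CDC25B and PLK1 were highest in replicate 1 of both groups. CCNB1 and AURKA were lowest in replicate 3 of both groups. The labels do not say whether equal numbers mark a shared culture or day. Leaving out each library in turn kept the same 8 genes lower each time.

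The other genes of the pathway were described with fixed lists, by counts beside the 29.9% of all genes called lower and the 26.6% called higher. Among 13 tested partners and regulators of CDK1, 8 were lower and 4 higher. Besides PKMYT1, those lower included CCNH and MNAT1, the partners of CDK7 in the kinase that activates CDK1 (log2 fold changes -1.10 and -0.78), the B-type cyclin CCNB3 (-0.80, with no more than 45 counts in any library) and the CDK-binding subunits CKS1B (-0.55) and CKS2 (-0.34), whereas CDK7 itself was not called (-0.07). CDKN1A, GADD45A, SFN and CCNA1 were higher. CDKN1A, the CDK inhibitor p21, went from 447 ± 1.65 CPM (SD, n = 3) in shLuc cells to 743 ± 39.0 CPM in shWDR5 cells (log2 fold change 0.73, adjusted p = 1.88e-06). GADD45A, a stress-induced inhibitor of CDK1 complexes, and SFN, which sequesters CDK1 complexes in the cytoplasm, were higher by 0.79 and 0.65 on the log2 scale. The testis cyclin CCNA1 was higher by 1.06 but reached no more than 530 counts in any library.

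Among 21 mitotic kinases and cofactors 16 were lower and 2 higher, with a median log2 fold change of -0.84. NEK2, a centrosome kinase, fell by 1.30 on the log2 scale, and CIT, the citron kinase of cytokinesis, by 1.16. GSG2, the haspin kinase of histone H3, had a log2 fold change of -1.13, and PBK one of -1.12. Both cofactors of AURKA given here were lower: the activator TPX2 went from 162 ± 5.49 CPM (SD, n = 3) to 86.7 ± 1.80 CPM, and BORA from 14.1 ± 0.48 to 7.75 ± 0.38 CPM. AURKB, the Aurora kinase of the centromere, had a log2 fold change of -0.74, close to that of AURKA. The 2 genes called higher were PLK2 and PLK3, stress-responsive relatives of PLK1 (log2 fold changes 0.63 and 0.66).

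Of 15 genes of the checkpoint that restrains CDC25 proteins 7 were lower and 3 higher. CHEK1, CLSPN and CHEK2 were lowest, with log2 fold changes of -0.84, -0.74 and -0.73, followed by ATRIP (-0.42), and the 3 called higher were YWHAB (0.34), YWHAQ (0.26) and YWHAG (0.19), which encode 14-3-3 proteins. Of the other 14-3-3 genes in the list YWHAE was lower (-0.29, adjusted p = 3.86e-04, edgeR), and YWHAZ (0.12) and YWHAH (-0.01) were not called. The 14-3-3 proteins are known to bind phosphorylated CDC25. Only 1 of this list was called higher with scaling by library totals alone, without shLuc replicate 1, without shWDR5 replicate 2 or without shWDR5 replicate 3. Of 17 transcription factors that act on G2/M genes 8 were lower and 4 higher. FOXM1, which activates CCNB1, PLK1 and AURKA, went from 78.7 ± 4.66 CPM (SD, n = 3) to 43.5 ± 2.35 CPM (log2 fold change -0.86, adjusted p = 2.96e-06), and MYBL2 from 102 ± 3.59 to 63.1 ± 4.82 CPM (-0.70, adjusted p = 1.10e-05). LIN52 and RBL1 had log2 fold changes of -0.76 and -0.65. The CCAAT-binding NFYA (0.49) and NFYC (0.31) and the repressor-type factors E2F5 (0.49) and E2F4 (0.43) were higher. NFYB (-0.07), the other NF-Y gene of the list, and LIN54 (-0.08) were not called.

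Among 50 genes of the G2/M phase other than the 10 members, 9 of them also in the lists above, 46 were lower and 1 was higher, with a median log2 fold change of -0.74. MKI67, the proliferation antigen Ki-67, went from 519 ± 22.5 CPM (SD, n = 3) to 242 ± 4.01 CPM, and TOP2A, the mitotic DNA topoisomerase, from 366 ± 13.2 to 198 ± 6.72 CPM. NUF2 of the kinetochore (log2 fold change -1.18), CKAP2L (-1.16) and CENPF (-1.10) were among the most reduced. CDC20 and UBE2C, which work with the anaphase-promoting complex, had log2 fold changes of -0.65 and -0.56, and the single gene called higher was HN1 (0.34). Without shLuc replicate 1, 2 were called higher.

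**Figure D5:**
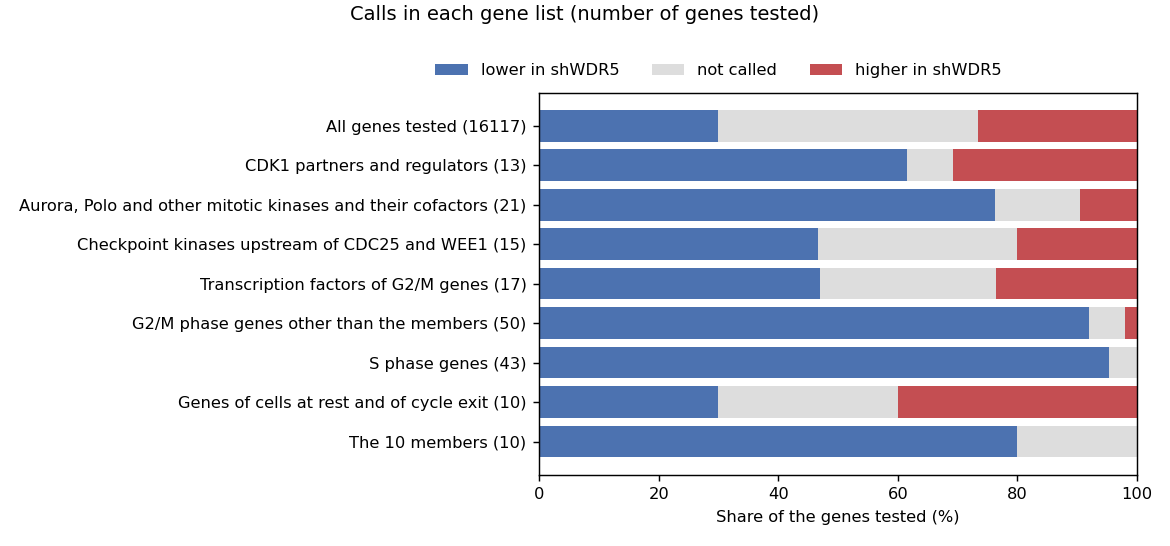
Share of tested genes (x axis, %) called lower (blue), called higher (red) or not called (grey) in shWDR5 cells at an adjusted p under 0.05, for all 16117 genes tested, for each list and for the 10 genes. The G2/M list has 46 of 50 genes lower and the checkpoint list 7 of 15, against 29.9% of all genes.

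The genes whose levels ran most like the mean log2 CPM of the 8 members called lower, over the same 6 libraries, were CEP78, SHCBP1, EME1, WDYHV1 and METAP1, with Pearson correlations between 0.9997 and 0.9998. Among 9449 genes with at least 10 CPM on average, 1857 had a correlation above 0.95, and the 6 libraries fall into 2 groups, so that a gene clearly lower in shWDR5 cells tends to follow the same line.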

How the data were processed

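Poly(A) RNA-seq libraries of 3 shLuc and 3 shWDR5 MCF10DCIS samples were analysed. Per the labels, the authors aligned reads to hg19 (GRCh37) with TopHat2 2.1.0 and deposited raw read counts per gene, made with featureCounts (version not given in the sources used here), with the length in bases of merged exons. A deposited table of the authors' edgeR 3.2.2 comparison (fold change, level, F, p-value and FDR per gene) was not used. Counts were scaled by TMM, filtered with filterByExpr and tested with the edgeR 4.0.16 quasi-likelihood test, group as the only term, in R 4.3.3. Benjamini-Hochberg adjustment covered all 16117 genes tested, and called means an adjusted p under 0.05. Log2 CPM used a prior count of 1. The SE of a log2 fold change is that of the difference in mean log2 CPM. Alternatives were size factors, library totals, DESeq2 1.42.0, the likelihood ratio test, 2 filters, the fold limit, the replicate block and leaving out libraries. The fit was tested on simulated data with 15965 genes, where 100 of those tested had a 1.5-fold change and 99 a 2-fold change. There 6.04% of its calls were false. The fit recovered 80% of the simulated 1.5-fold changes and 91.9% of the 2-fold changes. Calls were far more common in the real comparison, at 56.5% of genes tested. The share of false calls among those 9112 genes was not tested. Members and lists were chosen with earlier results of these data known. Genes named were all members, WDR5, a preset set of regulators, up to 4 called genes per list and direction with the largest change, and the 5 genes most like the members. CDK7, NFYB, LIN54, SLBP, CDKN1B, CDKN2A, CDKN2B and the called basal and epithelial markers other than KRT17 were named after their values were seen. No 2 libraries of a group agreed within sampling noise (chi-square per degree of freedom 6.75 or more).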

Additional observations from a re-analysis of the deposited data

How the results depend on the processing

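Results were recomputed under 14 other settings and 1 chosen after seeing the data, which left out replicate 1 of both groups. The 8 members called lower stayed called and lower in every one of these except the fold limit of 0.6, under which 7 did and PLK1 (log2 fold change -0.41) was lost. That limit cut the genes called from 9112 to 3690, with 1939 lower and 1751 higher. It also took the genes called lower from 8 to 5 among the CDK1 partners, 7 to 3 in the checkpoint list, 8 to 4 among the transcription factors and 3 to 1 in the cycle exit list, and those called higher from 3 to 0, 4 to 0 and 4 to 2 in the last 3 of these and from 1 to 0 in the G2/M list. Leaving out 1 library at a time gave 8120 to 8847 genes called and 8 members in each case, and leaving out replicate 1 of both groups gave 8980 and 8. CDC25B turned from 0.05 to -0.0044 with library totals alone (adjusted p = 0.957, range over all alternatives 0.291 to 0.957). The share of CDC25C, which differed by -6.27 percentage points (shWDR5 minus shLuc) per kilobase, differed by -4.40 points as a share of raw counts, where gene length is not removed. With the replicate block 10412 genes were called, those higher in the checkpoint and G2/M lists went from 3 to 5 and from 1 to 3, and WEE1 passed the threshold (log2 fold change 0.14, adjusted p = 0.0228, range over all alternatives 0.0228 to 0.320). The replicate numbers were not taken as pairs: the deviations of same-numbered libraries correlated at 0.60, 0.07 and 0.23 across 13410 genes, and shLuc replicate 2 correlated best with shWDR5 replicate 3 (0.40). Scaling moved the median log2 fold change of all genes between -0.07 and 0.01.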

Other observations

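S phase genes were lower in 41 of 43 cases and higher in none (edgeR; also none with DESeq2 or at an unadjusted p under 0.05), with a median log2 fold change of -0.74, equal to that of the G2/M list to 2 decimals, and 1 of these genes is also in a list above. E2F8 (log2 fold change -1.80), WDR76 (-1.29), the helicase subunit MCM5 (-1.24) and RAD51AP1 (-1.14) were lowest, and the histone mRNA-binding gene SLBP was at 48.1 CPM in both groups. No S phase gene was called higher by any alternative. By the same test 29.9% of all genes were lower.

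Among 10 tested genes of cells at rest and of cycle exit, a list that shares 2 genes with those above, 3 were lower and 4 higher, against 29.9% and 26.6% of all genes, with a median log2 fold change of 0.01. BTG2, an antiproliferative p53 target, went from 47.0 ± 2.96 CPM (SD, n = 3) to 99.6 ± 4.95 CPM (log2 fold change 1.08, adjusted p = 6.59e-07, edgeR). BTG1 and TXNIP were higher by 0.32 and 0.26, and the CDK inhibitor CDKN1B was not called (0.01). CDKN1C had the most negative log2 fold change (-2.24) but no more than 40 counts in any library. CDKN2D and RBL2 had log2 fold changes of -0.52 and -0.44. CDKN2A and CDKN2B had 0 counts in all 6 libraries, which allows up to 3 counts in each (0.0774 CPM in the shallowest).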
